A study of Homo sapiens with 2 samples.

Results

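The genes described here are 43 genes of the interferon response and of double-stranded RNA sensing, read on 2 arrays of Y79 cells with and without siRNA against the epithelial cell adhesion molecule (Ep-CAM). Their probes were taken by gene name, and the list of genes was drawn up with earlier results of these data known. Of the 43 genes, 41 were found under the listed name and 2 under an older name of the array design, DHX58 as LGP2 and IRF9 as ISGF3G. Together they had 57 of the 41000 non-control probes and 43 of the 30982 distinct gene names given to these probes.

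The cells were Y79, an established line from a human retinoblastoma, which was grown in suspension. One array held RNA of an untreated control culture, which received no siRNA, and the other held RNA of a culture collected 48 h after Ep-CAM siRNA. According to the study's methods, and not the sample labels, both cultures had first been exposed to the demethylating agent 5′-azacytidine, so the comparison cannot show a response that both shared. No array of a scrambled siRNA was part of these data, so the silencing of Ep-CAM, the presence of an siRNA and the transfection reagent cannot be told apart. With 1 array per condition there was no replicate, no test and no p-value, and each ratio compares these 2 arrays only.

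As background, double-stranded RNA in the cytoplasm is bound by the helicases RIG-I (gene DDX58), MDA5 (IFIH1) and LGP2 (DHX58), and in endosomes by the receptor TLR3. These sensors lead to activation of the transcription factors IRF3 and IRF7 and to the transcription of interferon genes such as IFNB1. Secreted interferon binds the receptor IFNAR1 with IFNAR2, which acts through the kinases JAK1 and TYK2 on STAT proteins, and STAT2 with IRF9 forms part of a factor that binds the interferon-stimulated response element (ISRE) in front of induced genes. Many sensors, among them RIG-I, MDA5, the kinase PKR (EIF2AK2) and the OAS enzymes, are themselves induced by interferon. An siRNA is a short double-stranded RNA, and double-stranded RNA delivered to cells is a known trigger of this pathway.

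The arrays read each transcript through probes of 60 bases. The probes below are shown because they stand for the steps of the pathway, from sensors through the ligand and a receptor kinase to an induced gene. Positions refer to the hg17 build, from which the array was designed. No hg17 annotation was used here, so exons and untranslated regions are not assigned. The listed spans of the EIF2AK2 probe and of the first JAK1 probe are longer than the probes themselves.

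IFIH1 probe, chr2:162954313-162954372, minus strand: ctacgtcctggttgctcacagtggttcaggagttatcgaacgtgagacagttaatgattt
EIF2AK2 probe, chr2:37248037-37253531, minus strand: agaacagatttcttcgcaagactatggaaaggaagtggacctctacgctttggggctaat
IFNB1 probe, chr9:21067535-21067594, minus strand: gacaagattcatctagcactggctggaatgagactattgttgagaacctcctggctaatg
JAK1 first probe, chr1:65013891-65015666, minus strand: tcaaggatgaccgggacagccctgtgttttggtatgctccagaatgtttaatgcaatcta
JAK1 second probe, chr1:65044642-65044701, minus strand: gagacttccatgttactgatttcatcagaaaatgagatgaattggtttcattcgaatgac
IFIT3 probe, chr10:91089342-91089401, plus strand: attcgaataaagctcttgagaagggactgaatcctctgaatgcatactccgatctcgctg

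The probes of IFITM2 and IFITM3, which encode closely related membrane proteins that restrict virus entry, overlap over 40 bases when aligned. They have the same base at 34 of these positions and differ at 6, an identity of 85%, so labelled RNA of one gene may bind the probe of the other and the 2 readings are uncertain as separate values. Capitals mark the differing bases in the overlap.

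IFITM2 probe, chr11:299109-299168, plus strand: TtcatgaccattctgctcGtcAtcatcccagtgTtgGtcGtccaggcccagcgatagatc
IFITM3 probe, chr11:309855-309914, minus strand: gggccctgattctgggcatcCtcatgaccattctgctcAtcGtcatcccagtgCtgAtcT

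The promoters were searched for the ISRE, as the letters GAAA, any 2 bases and GAAA again on either strand, and for the gamma-activated site (GAS), as TTCNNNGAA, in RefSeq windows on GRCh38.p14 that run from 250 bases before to 50 bases after each gene start. Of the 43 genes, 31 had such a window in the table, with DDX58 found under its current symbol, and 12 did not. The ISRE letters were found for 19 of the 31 genes, 61.3%, against 1195 of all 27305 gene symbols with a window, 4.38%. They were found for 15 of 17 induced effectors and 4 of 7 sensors and OAS enzymes, but for 0 of 7 interferon, receptor, signalling and regulatory factor genes. These counts leave out the 12 genes without a window, among them IFNAR2, IRF2, IRF3 and IRF7 of the last group. The GAS letters were found for 11 of the 31 genes, 35.5%, against 2560 of 27305 symbols, 9.38%, and in 4 genes a GAS match overlapped an ISRE match. A match is a description of the sequence and does not show that a factor binds there. The 6 stretches below of 70 bases from the windows, each written along the strand of its gene, show the motif in capitals in front of a sensor, an OAS gene and 4 induced effectors. The capitals mark 1 match in each stretch, and the stretches of IFIT1 and ISG15 hold a further match left in lower case. Capitals starting with TTTC are the motif on the other strand.

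IFIH1, chr2:162318685-162318754, minus strand: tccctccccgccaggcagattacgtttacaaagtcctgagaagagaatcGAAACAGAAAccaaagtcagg
OAS3, chr12:112938404-112938473, plus strand: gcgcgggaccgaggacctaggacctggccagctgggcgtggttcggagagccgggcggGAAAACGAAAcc
IFIT1, chr10:89392490-89392559, plus strand: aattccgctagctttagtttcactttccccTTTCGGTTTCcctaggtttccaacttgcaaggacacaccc
IFIT3, chr10:89332448-89332517, plus strand: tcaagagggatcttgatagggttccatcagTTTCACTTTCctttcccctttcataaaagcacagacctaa
ISG15, chr1:1013360-1013429, plus strand: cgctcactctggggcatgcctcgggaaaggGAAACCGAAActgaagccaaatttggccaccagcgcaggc
IFI44, chr1:78649741-78649810, plus strand: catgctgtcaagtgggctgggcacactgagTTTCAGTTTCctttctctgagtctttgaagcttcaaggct

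The values are processed spot signals of a 1-colour Agilent array, in arbitrary units. Each array was divided by its own 50th percentile, 48.8 for untreated and 50.0 for siRNA-treated cells, and the log2 ratio is siRNA-treated over untreated after that division. A probe was taken as measured where the scanner software marked its signal as well above background on both arrays, which it did for 70.4% of transcript spots of untreated and 68.0% of siRNA-treated cells. The lowest signals so marked were 14.9 and 17.5. The scanner error given below is the software's error estimate for the spots of a probe carried to the log2 scale, and it does not cover the spread between cultures. Both arrays lay on the same slide and were scanned together. Ep-CAM itself, under the name TACSTD1, had a single probe, dim on both arrays at 15.6 untreated and 12.0 after siRNA, so the silencing cannot be read here. Of 10 cone and photoreceptor markers, CRX, OTX2, ARR3 and GNGT2 were measured on both arrays, THRB on 1 array, and NRL, RXRG, NEUROD1 and PDE6H on neither, while RCVRN had no probe under that name. All 7 blood cell markers also had a measured probe. Read at the brightest such probe, they ran from PTPRC, at 26.01 and 30.2, to CD79A, at 1540 and 1456. Between these, CD3E stood at 815 and 749 and CD14 at 543 and 599. The other PTPRC probe was dim at 3.06 and 3.54. The background mark or a high signal alone thus does not show that a gene is active in the cells.

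The interferon response and sensor genes differed little between the arrays. Of the 57 probes, 47 were measured on both arrays, 1 gave a bound and 9 were well above background on neither. Of the 48 probes with a ratio or bound, 0 reached a log2 ratio of 1 and 0 reached -1, where the background over 29149 probes was 1.28% higher and 0.933% lower. The log2 ratios of the 47 measured probes ran from -0.43 for OASL to 0.39 for IFIT3, with a median of -0.01 and an SD between probes of 0.17. They lay above 0 for 23 and below 0 for 24. All 47 lay within 0.5 of 0, against 89.3% of the 26993 measured probes of the array. Bounds included, 5.27% of all probes reached 0.5 and 7.63% reached -0.5, and 0 member probes did either. The measured probes of the array had an SD of 0.33 and a median of -0.03. The difference between the arrays was within 1 scanner error for 38 of the 47 probes, 80.9%, and within 2 for 46, with OASL as the exception. Over all measured probes these shares were 68.5% and 88.4%. A repeat measure of spot noise came from the 94 probes printed as 10 spots, whose log2 ratios had a median SD of 0.14 between spots. The scanner errors of the 47 probes ran from 0.20 to 0.42 and thus all lay above this SD.

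**Figure D1:**
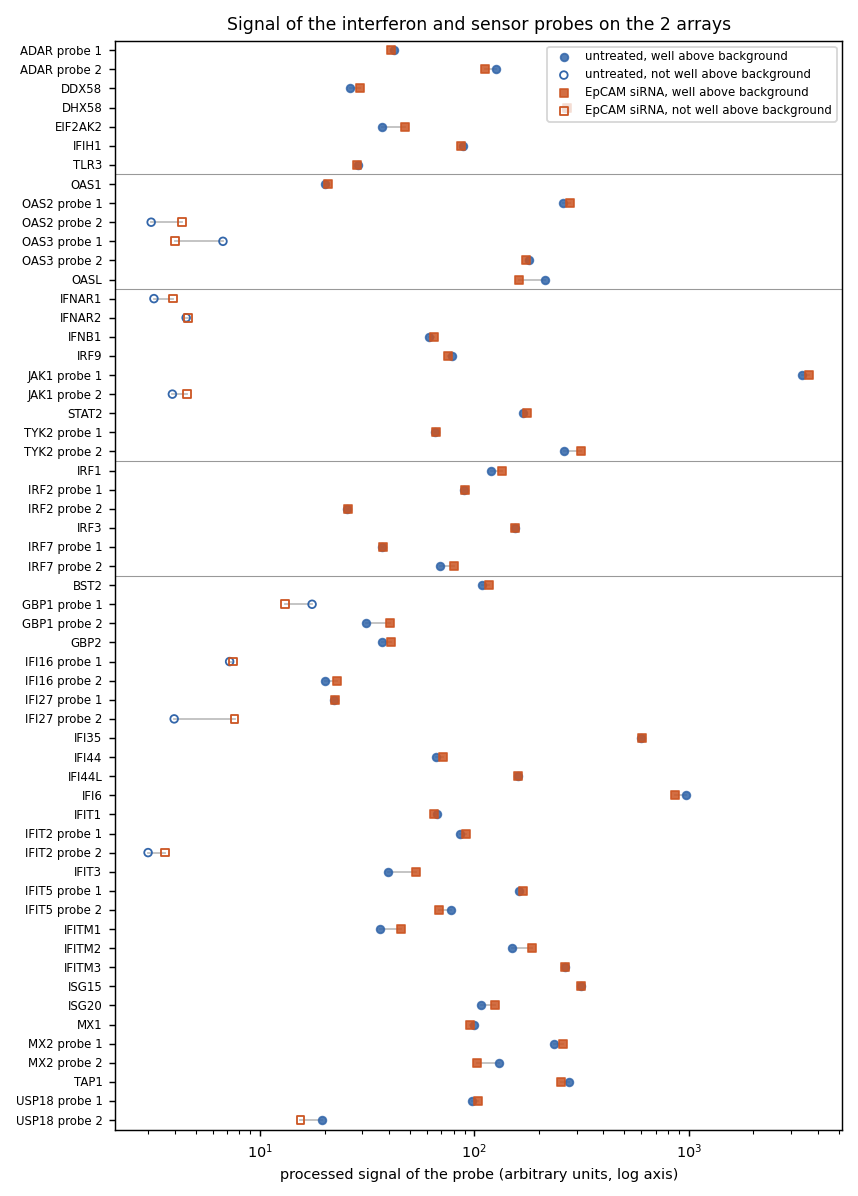
Processed signal (arbitrary units, log axis) of each of the 57 probes on the untreated array (blue circles) and the siRNA-treated array (orange squares), grouped from top to bottom as sensors, OAS family, receptor and signalling genes, regulatory factors and induced effectors. Open symbols are not well above background, levels of different probes cannot be set against each other, and the 2 symbols of most measured probes nearly coincide.

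Among the 6 sensors, 2 lay above and 4 below 0, with a median log2 ratio of -0.03. DDX58, which encodes RIG-I, had a signal of 26.2 untreated and 29.1 after siRNA, a log2 ratio of 0.12. IFIH1, which encodes MDA5, had 88.2 and 86.8, a log2 ratio of -0.06. DHX58, which encodes the regulator LGP2, stood at 268 and 272, a log2 ratio of -0.01. These 3 helicases thus differed between the arrays by less than their scanner errors, which were 0.36, 0.22 and 0.21. TLR3, the endosomal receptor, had signals of 28.5 and 28.3, a log2 ratio of -0.04. EIF2AK2, the kinase PKR that stops translation when bound to double-stranded RNA, had 36.9 untreated and 47.6 after siRNA. Its log2 ratio of 0.33 was the highest of the sensors and lay past its scanner error of 0.27 but within 2 such errors. ADAR, the enzyme that edits adenosine in double-stranded RNA, had 2 probes, one at 42.2 and 40.6 with a log2 ratio of -0.09 and one at 126 and 112 with -0.21. Both ADAR probes were thus slightly lower on the siRNA-treated array, each by no more than its scanner error.

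The OAS enzymes make 2′,5′-linked oligoadenylates that activate the ribonuclease RNase L. OAS1 stood at 20.2 untreated and 20.7 after siRNA, a log2 ratio of 0.01. OAS2 stood at 260 and 279 on its measured probe, a log2 ratio of 0.07, and its other probe was dim on both, under the background mark, at 3.102 and 4.32. For OAS3 the measured probe gave 180 and 174, a log2 ratio of -0.09, and the other probe was likewise dim, at 6.71 and 4.01. OASL, an OAS-like protein, had 214 and 162. Its log2 ratio of -0.43, a signal 0.741 times that of the untreated array, was the lowest of all 47 probes and lay at just over 2 scanner errors of 0.21. The OASL spot lay at the lower right of the array, in a corner that begins at row 355 and column 43 and ends at row 532 and column 85. The measured spots around it had a median log2 ratio of -0.31. Subtracting this local median left -0.13.

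The ligand and the receptor genes were read less completely. IFNB1, interferon beta, had a signal of 61.3 untreated and 64.5 after siRNA, a log2 ratio of 0.04 with a scanner error of 0.23. Both receptor subunits were dim on both arrays and gave no ratio, IFNAR1 at 3.20 and 3.92 and IFNAR2 at 4.52 and 4.61. A change in either of them was not detectable at these signals. JAK1, a kinase bound to the receptor, stood at 3395 and 3654 on its first probe, a log2 ratio of 0.07. Its second probe, shown above with the first, was dim at 3.90 and 4.57. Only 1 of the 2 JAK1 probes was thus well above background, and the same split of 1 measured and 1 dim probe was seen for 6 other genes, GBP1, IFI16, IFI27, IFIT2, OAS2 and OAS3. TYK2, the other receptor kinase, had one probe at 65.4 and 66.0 with a log2 ratio of -0.02 and one at 263 and 313 with 0.21. STAT2 stood at 169 and 175, a log2 ratio of 0.02, and its partner IRF9 at 78.3 and 75.03, a log2 ratio of -0.10. The 5 measured genes of this group had a median log2 ratio of 0.04, with 4 above and 1 below 0.

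Among the interferon regulatory factors, IRF3 is present before infection and is activated by phosphorylation, while IRF7 is itself induced by interferon. IRF3 stood at 155 on both arrays, a log2 ratio of -0.03. IRF7 gave 36.9 and 37.4 on one probe, a log2 ratio of -0.02, and 68.7 and 80.7 on the other, a log2 ratio of 0.20. IRF1, an activator also induced by interferon gamma, had 120 and 134, a log2 ratio of 0.13. IRF2, which competes with IRF1 for its sites, had 89.8 and 90.3 on one probe and 25.3 and 25.8 on the other, with log2 ratios of -0.03 and -0.01. The 4 factors had a median of 0.05, with 2 above and 2 below 0.

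The 22 induced effectors were all measured and had a median log2 ratio of 0.05, against -0.02 over 22103 measured genes, each gene read at its brightest measured probe. Of the 22, 13 lay above and 9 below 0, and their range was -0.21 to 0.39. The IFIT proteins bind foreign RNA and act on translation. IFIT1 had a signal of 66.6 untreated and 64.9 after siRNA, a log2 ratio of -0.07, and IFIT2 had 85.9 and 91.1, a log2 ratio of 0.05. IFIT3 had 39.7 and 53.2. Its log2 ratio of 0.39, a signal 1.31 times that of the untreated array, was the highest of all 47 probes and lay past its scanner error of 0.25 but within 2 such errors. IFIT5 had 161 and 168 on one probe, a log2 ratio of 0.02, and 77.7 and 68.3 on the other, a log2 ratio of -0.22. The genes of this family thus did not share a direction, and the 2 IFIT5 probes had opposite signs.

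ISG15, a ubiquitin-like protein, stood at 314 and 313, a log2 ratio of -0.04. USP18, the protease that removes ISG15, stood at 97.4 and 104 on one probe, a log2 ratio of 0.06. Its other probe was well above background untreated, at 19.5, but not after siRNA, at 15.4, which gives only a bound of -0.20 on the log2 scale. ISG20, an RNA exonuclease, had 108 and 125, a log2 ratio of 0.18. The dynamin-like antiviral GTPases were MX1, at 99.7 and 95.5 with a log2 ratio of -0.10, and MX2. One MX2 probe had 234 and 258, a log2 ratio of 0.11, and the other had 130 and 103, a log2 ratio of -0.38. The second lay in the corner, among spots with a median of -0.17, and the difference of 0.48 between the MX2 probes was the largest among the 6 genes with 2 measured probes. IRF7, TYK2, IFIT5 and MX2 were the 4 of these 6 genes whose probes had opposite signs.

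The membrane proteins that block virus entry or release were IFITM1, IFITM2, IFITM3 and BST2. IFITM1 had a signal of 36.2 untreated and 45.5 after siRNA, a log2 ratio of 0.29. IFITM2 had 149 and 185, a log2 ratio of 0.28, on a spot in the corner whose surroundings had a median of 0.64. Subtracting that local median turned its value to -0.36, the only member of which the sign turned with a change of more than 0.5. IFITM3, whose probe overlaps in sequence with that of IFITM2, stood at 264 on both arrays, a log2 ratio of -0.04. BST2, which holds budding virus at the cell surface, had 109 and 117, a log2 ratio of 0.07.

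Among the genes named for their induction by interferon, IFI6 had 971 untreated and 863 after siRNA, a log2 ratio of -0.21. This was the lowest of the induced effectors with each gene read at its brightest measured probe. Single probes of MX2 and IFIT5 were lower, at -0.38 and -0.22. IFI35 stood at 601 and 607, a log2 ratio of -0.02. IFI44 had 66.3 and 71.2, a log2 ratio of 0.07, and its neighbour IFI44L stood at 160 on both arrays, a log2 ratio of -0.03. These 3 lay within their scanner errors. IFI16, a sensor of DNA, had 20.1 and 22.9 on its measured probe, a log2 ratio of 0.16. IFI27 was the only gene here with repeated spots, and 1 of the 10 spots was left out as an outlier. The other 9 had signals from 19.1 to 26.6 untreated, with a median of 21.03, and from 15.2 to 28.8 after siRNA, with a median of 22.7. Their log2 ratios ran from -0.50 to 0.15 with an SD of 0.20, 6 above and 3 below 0, and the ratio of the probe was -0.02. This spread between spots of 1 probe of low signal was larger than the SD of 0.17 between the 47 probes. Of the 9 spots, 8 were well above background untreated and 6 after siRNA. The scanner error of this probe, 0.42, was the highest of the 47. It averages the errors of single spots and is not reduced for their number.

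GBP1 and GBP2 are GTPases that are best known as targets of interferon gamma. GBP1 had a signal of 31.2 untreated and 40.4 after siRNA on its measured probe, a log2 ratio of 0.34 with a scanner error of 0.32, and its dim probe had 17.5 and 13.1. GBP2 had 36.9 and 40.7, a log2 ratio of 0.11. TAP1, which carries peptides for antigen presentation, had 277 and 255, a log2 ratio of -0.16. No member of this group lay past 2 scanner errors.

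**Figure D2:**
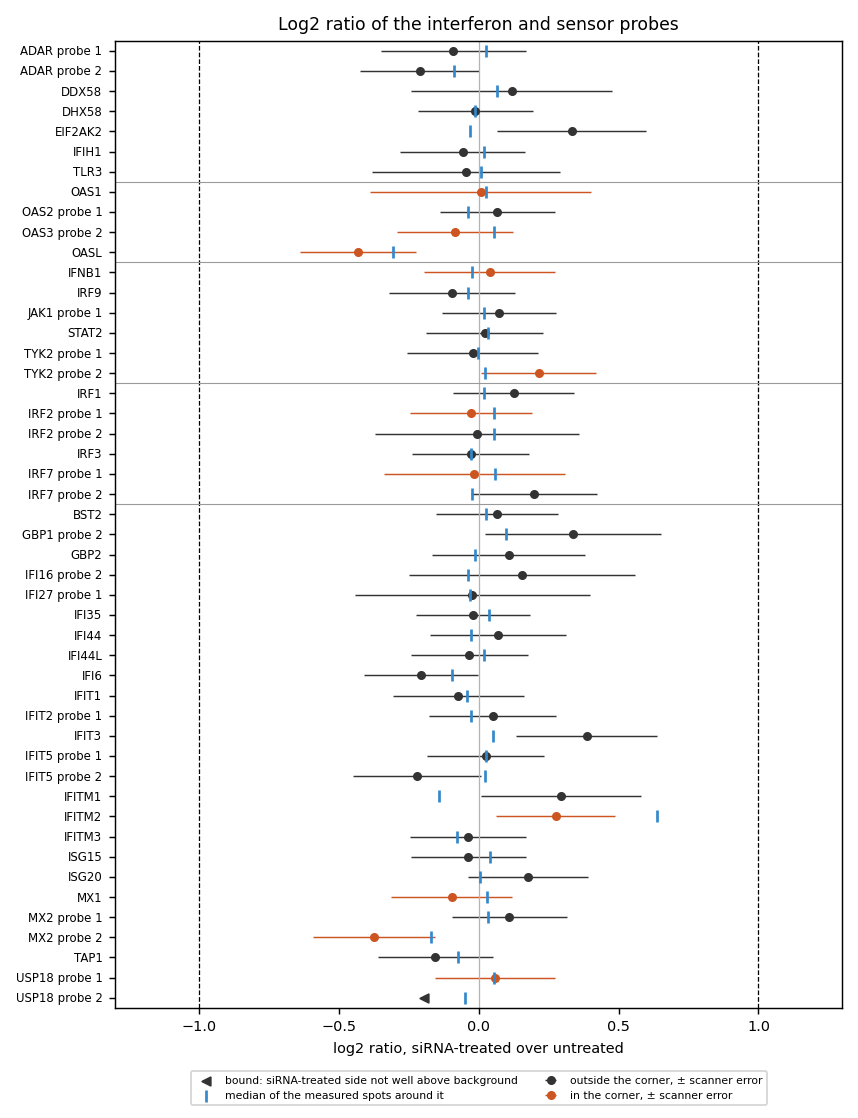
Log2 ratio, siRNA-treated over untreated, of the 47 measured probes (points, bars ± 1 scanner error) and of the 1 bound (triangle), with probes in the lower right corner of the array in orange and the median of the surrounding measured spots as a blue tick. All points lie between -0.43 and 0.39, inside the dashed lines at -1 and 1.

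The spread of the ratios differed by place on the array, as it did for all probes. The corner held 13 of the 57 probes, of which 11 were measured, with an SD of 0.21 and a range of -0.43 to 0.28. The 36 measured outside it had an SD of 0.15 and a range of -0.22 to 0.39. Over all measured probes the SD was 0.51 within the corner and 0.29 elsewhere. The corner, whose limits were chosen here, held 6878 of the 40976 probes left after removal of outlier spots. It held 4392 of the 26993 measured probes, 266 of the 372 probes called higher and 108 of the 272 called lower. The lowest values of these genes, OASL at -0.43 and the second MX2 probe at -0.38, came from the corner, whereas IFIT3, GBP1 and EIF2AK2, the highest, did not. The part of the position in these values was not tested beyond the subtraction of the local median.

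**Figure D3:**
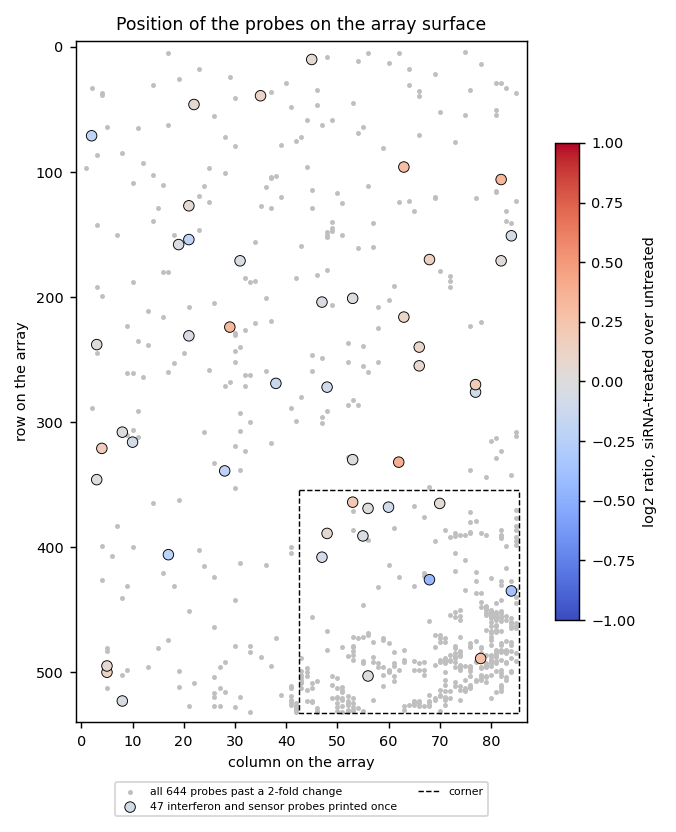
Row and column on the array of the 47 interferon and sensor probes printed as single spots with a ratio or bound (circles coloured by log2 ratio) and of all 644 probes past a 2-fold change in either direction (grey), with the corner outlined by dashes. The grey points crowd into the corner, whereas the coloured circles are spread over the surface and stay pale.

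**Figure D4:**
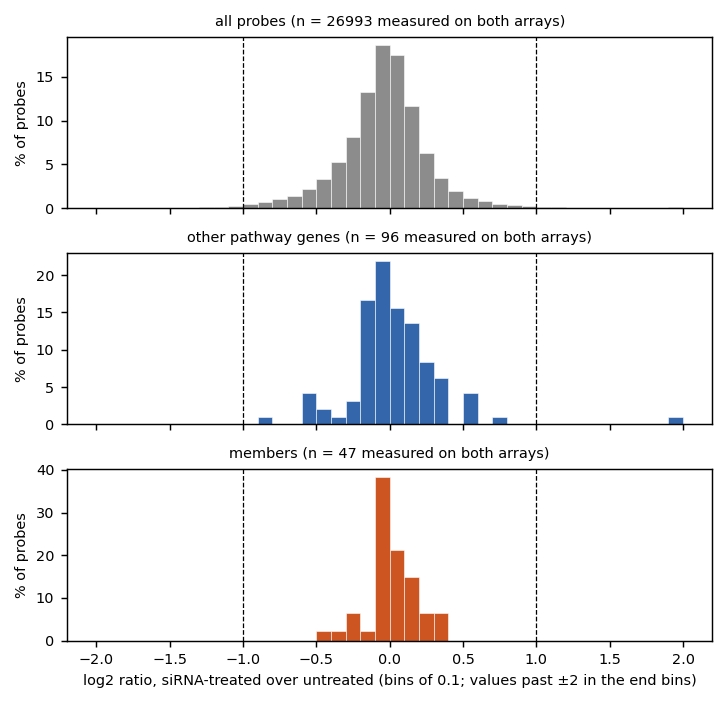
Share of measured probes per 0.1 of log2 ratio for all probes (top), for 94 other genes of the pathway (middle) and for the 43 interferon and sensor genes (bottom), with dashed lines at -1 and 1. The bottom panel ends at -0.43 and 0.39, whereas the middle panel holds 1 probe past 1, DTX3L.

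Set against the promoter search, the 19 genes with the ISRE letters had log2 ratios from -0.21 to 0.39 with a median of -0.03. The 11 measured genes without them had a median of 0.04 and a range of -0.21 to 0.21. For the 11 measured genes with no window in the table the median was 0.06 and the range -0.43 to 0.28. All 3 medians lay within 0.1 of 0.

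**Figure D5:**
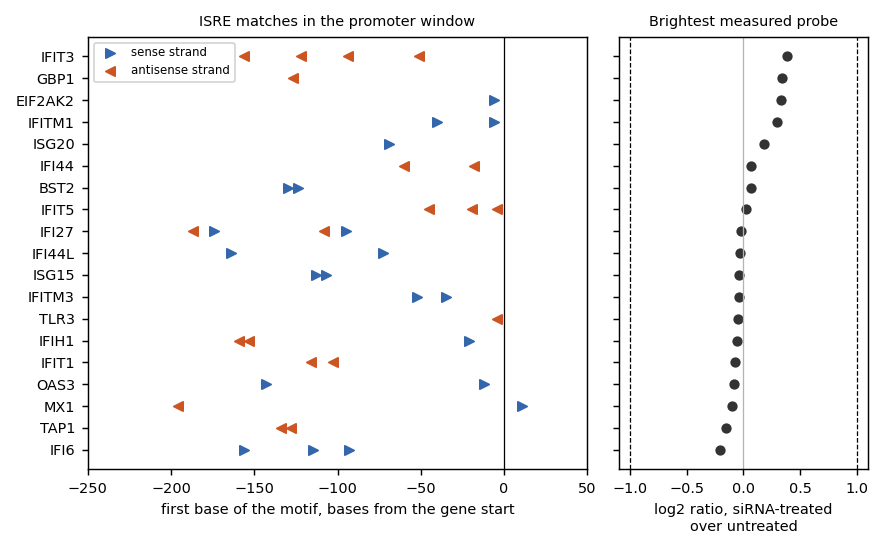
Position of each match to the ISRE letters relative to the gene start, in bases (left; blue, sense strand; orange, antisense strand) and log2 ratio of the brightest measured probe (right; dashed lines at -1 and 1) for the 19 genes with a match, in the order of the ratio. IFIT3 stands at the top with 0.39 and IFI6 at the bottom with -0.21.

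A wider list of 94 genes of the same pathway gave 66 measured genes with a median log2 ratio of -0.01, of which 57, 86.4%, lay within 0.5 of 0, against 89.5% of all measured genes. A further 4 genes gave a bound, and 24 had no ratio or no probe under the names searched. Of the 70 genes with a ratio or bound, each read at 1 probe, 2 were called higher and 0 lower. Counted by probe, 2 were called higher and 0 lower among the 96 measured probes and 7 bounds of these lists. The background over all probes was 1.28% higher and 0.933% lower. One of the 2 was DTX3L, a ubiquitin ligase induced by interferon, at 52.6 untreated and 418 after siRNA, a log2 ratio of 2.96. Its spot lay in the corner and the other measured DTX3L probe had a log2 ratio of -0.06. Several of the nearest spots were also called higher. The median of the measured spots around it was still -0.01, so subtracting the local median hardly changes its value. The other was PRKRIR, named as a repressor of an inhibitor of PKR, which was not well above background on the untreated array, at 14.9, and stood at 32.1 after siRNA, outside the corner. This gives a bound of 1.07 on the log2 scale, or 2.1-fold, which is just past the cutoff of 1 and has a scanner error of 0.44. Among the alternatives given below, PRKRIR was not called with the local median subtracted, with the series value table or with normexp. It also drops out where only probes well above background on both arrays are used, since these leave out bounds.

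By list, 14 of 21 sensing adaptors and regulators were measured, with a median of -0.03. The brightest of them were EIF2C2, the Argonaute protein that cuts targets of siRNAs, at -0.03, DICER1, which cuts double-stranded RNA into siRNAs, at -0.42, and TICAM1, the adaptor of TLR3, at 0.08, each at its brightest probe. The second measured probe had the opposite sign for both, 0.11 for DICER1 and -0.12 for TICAM1. Of 28 cytokines and their receptors 14 were measured, all between -0.18 and 0.14 on the log2 ratio, with IL28A at -0.18, IL6 at -0.01 and IFNA4 at -0.06 as the brightest. Of 45 further induced genes 38 were measured, with a median of 0.01. The brightest were SOCS1, which inhibits the JAK kinases, with 7680 and 5462 and a log2 ratio of -0.53 (-0.22 for the second probe), B2M, the light chain of class I antigens, with 7145 and 8495 and 0.22, and PSMB9, a subunit of the immunoproteasome, with 3438 and 3087 and -0.19.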

How the data were processed

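Total RNA of Y79 cells was amplified, labelled with Cy3 and hybridised to Agilent whole human genome 4x44k arrays by the authors. The deposited spot intensity values were made by the authors with Agilent Feature Extraction, version 9.5.3.1 in the file header. The processed signal is background-subtracted and not scaled between arrays. The series value table, deposited by the authors, held the raw median intensity of each spot, equal within 0.5 for 100% of spots, with medians of 120.0 and 122.5. It was used as an alternative.

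After removal of control and outlier spots, the processed signals of an array were divided by their 50th percentile, floored at 0.01 and put on the log2 scale. Spots of a probe were averaged, and a probe passed the background mark if 50% or more of its spots did. A probe dim on 1 array gives a bound, against the higher of the lowest well-above signal and its own. Genes were read at the brightest measured probe. Probes were called at a log2 ratio of 1 or -1. Every probe of the listed genes was looked at, and of the wider lists the called genes and the 3 brightest were named. Members and lists were chosen with earlier results of these data known. Probe accessions matched the named gene in RefSeq for 54 of the 57 probes, and 3 were not in the table.

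The calls were tested on simulated data, with changes well past the cutoff set in probes of moderate to high signal. That simulation does not cover changes near the cutoff or changes in dim probes. Alternatives were other scalings, limma 3.58.1 normexp (offset 50), other filters, and the place on the array. With 2 arrays, their number limits the precision.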

Additional observations from a re-analysis of the deposited data

How the results depend on the processing

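No member probe was called higher or lower under any alternative. No paired analysis was possible because each condition had 1 array, and no array could be left out. With normexp, the median log2 ratio of all probes was -0.20, that of the members -0.19, of the sensors with the OAS family -0.27 and of the induced effectors -0.17, and member probes ran from -0.74 (IFI6) to 0.29 (DDX58). Among the 94 other pathway genes it called 1 higher and 2 lower. When normexp was fitted without 1 spot dimmer than its local background, chosen after seeing the data, the medians of members, sensors and effectors were -0.01, 0.00 and 0.00, with 1 called higher. The other genes called higher numbered 1 in place of 2 with the series value table and with probes well above background on both arrays only. The number was also 1 without the corner and with the local median subtracted. The gene left was PRKRIR without the corner and DTX3L in the other cases. With no filter on dim probes 3 were called higher and 1 lower. Over all alternatives the median ran from -0.19 to 0.05 for the members, from -0.27 to 0.00 for the sensors and from -0.17 to 0.07 for the effectors. By gene, 34 of 41 values moved past the spot noise with normexp, 8 with the series value table and at most 6 with any other. JAK1 moved to 0.40 with quantile normalization, and MX2 to -0.13 as the mean of its probes. The cause of these shifts was not tested. Probes dim on both arrays, 9 of 57, can show no change.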

Other observations

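Some class I antigen genes, which interferon induces in many cells, were among the other pathway genes not described above, and their probes disagreed. HLA-E had 3 measured probes. The first had a signal of 2673 untreated and 3883 after siRNA, a log2 ratio of 0.50, the second had 2267 and 2157, a log2 ratio of -0.11, and the third, in the corner, had 1002 and 710, a log2 ratio of -0.53. HLA-C had 4 measured probes with log2 ratios of 0.00, 0.02, 0.27 and 0.51, and HLA-B had 2 with 0.15 and 0.09. HLA-F had 0.52 on a spot in the corner and 0.03 on a spot outside it. Probes of HLA genes share sequence, so labelled RNA of one gene may bind the probe of another. SP100, a nuclear body protein, had 1122 and 658 on its brightest probe, a log2 ratio of -0.80, whereas its other 3 measured probes had 0.20, 0.15 and 0.22. The kinase gene IKBKE, which acts below the sensors, had 83.1 and 140 on its only probe, a log2 ratio of 0.72. These genes were singled out after their values were seen.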
